A study of Mus musculus with 9 samples.

Results

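The genes described are the 6 Fc receptor genes Fcgr1, Fcgr2b, Fcgr3, Fcgr4, Fcer1g and Fcgrt, taken by symbol from a deposited table of 24411 mouse genes. All 6 were found, and all 6 were among the 11753 genes that passed the filter on low values (1 TPM or more in 3 or more libraries). TPM is a transcript level corrected for transcript length and scaled to the same total in every library. The libraries came from macrophage lines that proliferate in culture with M-CSF, the growth factor that keeps macrophages alive. The cells were taken from C57BL/6 mice: 3 YS lines from the yolk sac of early embryos (E9.5), 3 FL lines from the fetal liver of later embryos (E14.5), and 3 BM lines from adult bone marrow. No genetic change or added stimulus separated the groups, and each line was a bulk culture from its own dish or well, not a clone. The starting cells were pooled from several mice, so lines of 1 origin may share animals, and the p-values below measure the spread between lines. Age of the donor and tissue of origin changed together. By the paper's methods, seeding density and time to stable growth also differed by tissue, and YS cells began in smaller wells. The effects of these cannot be told apart.

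Fc receptors bind the constant part of antibodies. In the mouse, FcγRI (Fcgr1), FcγRIII (Fcgr3) and FcγRIV (Fcgr4) are activating receptors for IgG: they assemble with the FcRγ chain, encoded by Fcer1g, whose ITAM motif recruits the kinase Syk and starts phagocytosis and cytokine release. FcγRIIB (Fcgr2b) is the single inhibitory receptor of the family, with an ITIM motif in its own tail that recruits the phosphatase SHIP-1 (Inpp5d). FcRn (Fcgrt) is of another kind, an MHC class I-like protein that pairs with β2-microglobulin (B2m) in endosomes and returns IgG to the surface instead of letting it be degraded. Macrophages are known for carrying all of these, and the level of activating to inhibitory receptor is known to set how strongly they answer to immune complexes.

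The main difference among origins lay in 2 of the 3 activating receptors and in FcRn. Fcgr1, Fcgr3 and Fcgrt were higher in YS lines and in FL lines than in BM lines. Fcgr2b was higher in FL than in BM lines by little more than 2-fold. For Fcgr4 and for the shared γ chain Fcer1g, no comparison passed the test. A gene was called where limma, a linear model fitted to log2(TPM + 1) over all genes and all 9 lines, gave a Benjamini-Hochberg adjusted p under 0.1 with more than a 2-fold difference. In YS against BM lines, 3 of the 6 genes were called higher, where 7.57% of all tested genes were. In FL against BM lines, 4 of the 6 were called higher, where 6.01% of all tested genes were. None of the 6 was called lower in either comparison, where 5.22% (YS against BM) and 4.30% (FL against BM) of all genes were. Between YS and FL lines, limma called 0 of the 6 in either direction, and 2 of them (Fcgr2b and Fcer1g) had an unadjusted p under 0.05. There, 1.95% of all genes were called higher and 1.85% lower. With the libraries brought to a common distribution (quantile normalization), the calls over all genes split differently, at 724 higher and 763 lower in place of 890 and 614 for YS against BM, and at 592 and 593 in place of 706 and 505 for FL against BM. The calls of these 6 genes were the same under that normalization.

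**Figure D1:**
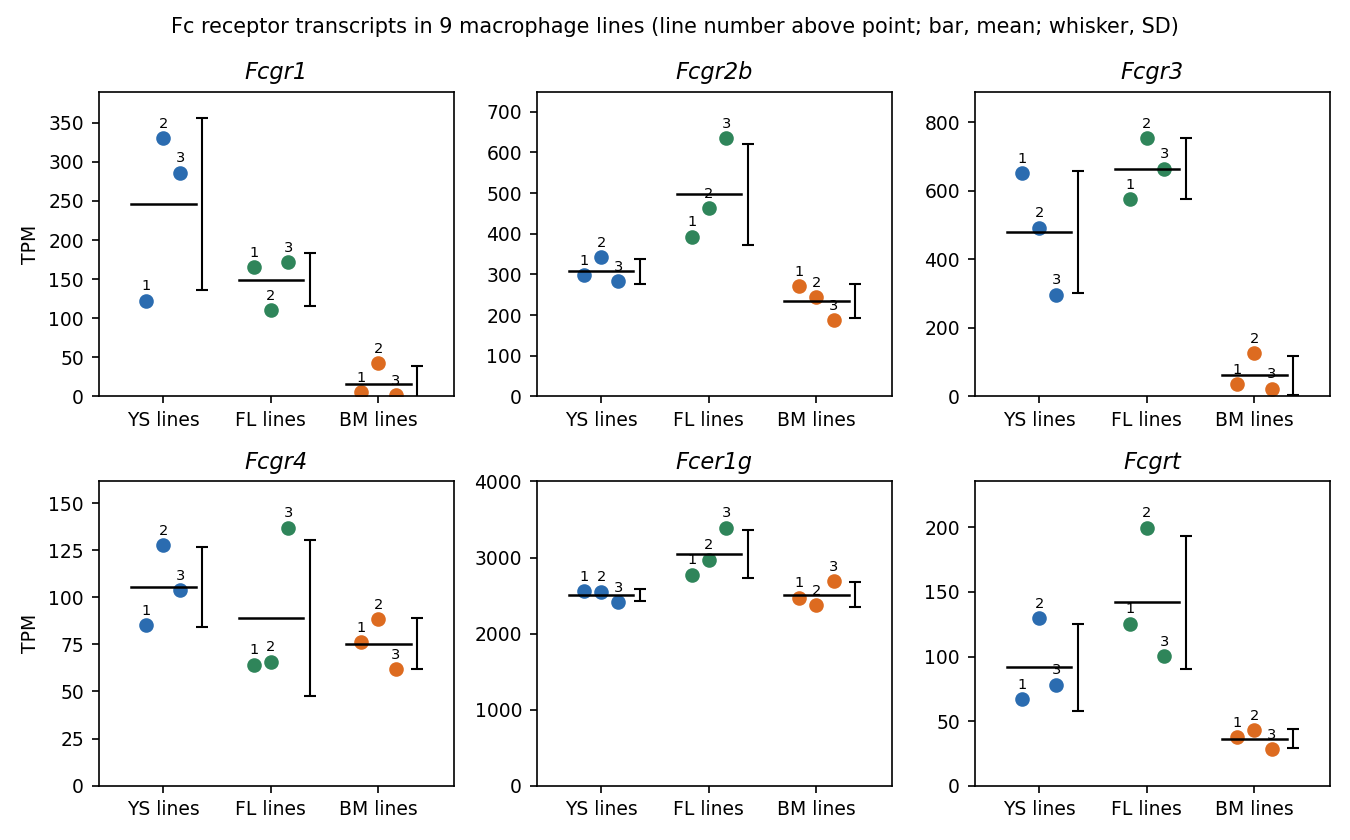
Level of each Fc receptor gene (TPM, linear axis from 0, with its own scale in each panel) in the 3 YS, 3 FL and 3 BM lines; the number above a point is the line, the bar is the group mean and the whisker 1 SD, cut off at 0 where it would run below. The BM lines lie below every YS and FL line for Fcgr1, Fcgr3 and Fcgrt, and the 3 groups overlap for Fcgr4.

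The upstream sequences of the 4 Fcγ receptor genes are shown because Fcgr1 and Fcgr3, called in the same comparisons, lie on different chromosomes, while Fcgr4 and Fcgr2b, which lie near Fcgr3, were called in 0 and 1 of the 3 comparisons. Fcgr2b, Fcgr4 and Fcgr3 follow each other on chromosome 1 in the RefSeq gene table, with Fcer1g on the same chromosome, whereas Fcgr1 is on chromosome 3 and Fcgrt on chromosome 7. The runs below are the 250 bases before the start of each gene from RefSeq (GRCm38.p6), 5′ to 3′ on the gene's own strand, at chr3:96293970-96294219 (minus strand) for Fcgr1, chr1:171059404-171059653 (minus) for Fcgr3, chr1:171018676-171018925 (plus) for Fcgr4 and chr1:170976072-170976321 (minus) for Fcgr2b. Capitals mark matches to GAGGAA, read on the other strand as TTCCTC, the core of many sites bound by the myeloid factor PU.1.
Fcgr1: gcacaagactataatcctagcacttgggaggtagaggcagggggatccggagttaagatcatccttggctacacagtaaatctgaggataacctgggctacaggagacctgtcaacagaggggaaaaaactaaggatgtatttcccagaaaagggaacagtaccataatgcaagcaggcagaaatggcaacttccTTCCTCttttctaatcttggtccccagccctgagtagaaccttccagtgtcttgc
Fcgr3: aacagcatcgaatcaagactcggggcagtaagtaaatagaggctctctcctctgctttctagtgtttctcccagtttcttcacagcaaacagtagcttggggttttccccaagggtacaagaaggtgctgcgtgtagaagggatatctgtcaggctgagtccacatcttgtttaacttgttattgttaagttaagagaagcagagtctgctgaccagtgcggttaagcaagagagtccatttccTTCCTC
Fcgr4: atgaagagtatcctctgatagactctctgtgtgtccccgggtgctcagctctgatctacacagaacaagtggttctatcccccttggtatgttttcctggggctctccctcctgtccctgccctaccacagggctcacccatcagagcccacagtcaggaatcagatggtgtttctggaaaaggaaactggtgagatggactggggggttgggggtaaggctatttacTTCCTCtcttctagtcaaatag
Fcgr2b: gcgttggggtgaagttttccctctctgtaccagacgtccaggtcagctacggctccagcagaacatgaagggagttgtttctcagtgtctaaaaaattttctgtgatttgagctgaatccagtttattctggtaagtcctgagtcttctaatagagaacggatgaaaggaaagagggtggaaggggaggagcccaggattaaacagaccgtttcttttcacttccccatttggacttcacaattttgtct
All 3 activating receptor genes held 1 GAGGAA match on the opposite strand, starting 55 bases before the start of Fcgr1, 6 before that of Fcgr3 and 22 before that of Fcgr4. Fcgr3 has a second listed start, from which the same match lay 15 bases away. No match was found in these windows of Fcgr2b, Fcer1g or Fcgrt. Of the 32851 RefSeq promoter windows of this length, 23.3% held GAGGAA on either strand. Fcgr4 held the motif as Fcgr1 and Fcgr3 did, and was not called in any comparison. The sequences are of the reference strain, and no binding was measured in the data used here.

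Fcgr1 encodes FcγRI, the high-affinity receptor that binds single IgG molecules. Its level was 122, 329.9 and 286 TPM in YS lines 1, 2 and 3, then 166, 110.1 and 172 TPM in FL lines, and 5.47, 42.1 and 1.68 TPM in BM lines. Every YS and FL line was above every BM line, and the YS and FL lines overlapped. Among BM lines, line 2 was 11.8 times the mean of the other 2. The difference on the log2(TPM + 1) scale was 4.65 (SE 0.87, 95% confidence interval 2.65 to 6.64, limma adjusted p = 0.0076) for YS against BM. It was 4.02 (SE 0.87, interval 2.03 to 6.01, limma adjusted p = 0.014) for FL against BM. Between YS and FL lines it was 0.62 (interval -1.37 to 2.62, limma adjusted p = 0.68), an interval wide enough to hold a difference of more than 2-fold either way. Both calls were made in every fit that left out 1 line, but the size of the difference depended on which BM line was left out. Without BM line 2, the fold rose from 25.03 to 54.5 for YS against BM and from 16.2 to 35.4 for FL against BM. Without BM line 3, it was 13.6 and 8.83.

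Fcgr3 encodes FcγRIII, the low-affinity activating receptor that binds immune complexes. By TPM, a per-length level, it was the highest of the 4 Fcγ receptor genes in every YS and FL line. It stood at 651, 492 and 297 TPM in the 3 YS lines and at 575, 753 and 665 TPM in the 3 FL lines. In BM lines it stood at 36.4, 126 and 21.9 TPM, below every other line. The YS and FL lines overlapped. The difference was 3.26 (SE 0.56, interval 1.99 to 4.53, limma adjusted p = 0.0054) on the log2 scale for YS against BM and 3.79 (SE 0.56, interval 2.52 to 5.06, limma adjusted p = 0.0029) for FL against BM. For YS against FL it was -0.53 (interval -1.80 to 0.74, limma adjusted p = 0.58). BM line 2 was again the highest of its group, at 4.32 times the mean of BM lines 1 and 3. Without it, the fold rose from 9.59 to 15.6 for YS against BM and from 13.9 to 22.6 for FL against BM. Fcgr3 and Fcgr2b have similar extracellular parts, and 94 of the 1627 distinct stretches of 75 bases in Fcgr3 coding transcripts (5.78%; GENCODE M21) also occur in Fcgr2b, so reads from there could be assigned to either gene. The same 94 stretches were 2.48% of those of Fcgr2b. Fcgr1, Fcgr4, Fcer1g and Fcgrt shared none with any other gene.

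Fcgr4 encodes FcγRIV, which binds IgG2a and IgG2b with intermediate affinity. It was at 85.3, 128 and 104 TPM in the YS lines, 64.3, 65.8 and 137 TPM in the FL lines and 76.2, 88.5 and 61.7 TPM in the BM lines. The 3 groups overlapped, and no comparison was called. The difference was 0.47 (SE 0.30, interval -0.20 to 1.15, limma adjusted p = 0.26) for YS against BM, 0.16 (interval -0.51 to 0.83, limma adjusted p = 0.75) for FL against BM and 0.32 (interval -0.36 to 0.99, limma adjusted p = 0.52) for YS against FL, on the log2 scale. The intervals for FL against BM and for YS against FL stayed within a 2-fold difference, and that for YS against BM reached just past it. The highest FL value came from FL line 3 alone, and without that line the FL against BM difference was -0.20 on the log2 scale. Fcgr4 lies between Fcgr2b and Fcgr3 on the chromosome. Its groups overlapped in the comparisons with BM lines, and those of Fcgr3 did not. Over all tested genes, groups did not overlap for 49.0% (YS against BM) and 49.5% (FL against BM). Whether position had a part in these levels was not tested.

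Fcgr2b, the inhibitory receptor, was at 298, 342 and 284 TPM in the YS lines, 393, 463 and 635 TPM in the FL lines and 271, 244 and 188 TPM in the BM lines. The groups did not overlap: every FL line was above every YS line, and every YS line above every BM line. The FL against BM difference was 1.07 (SE 0.20, interval 0.62 to 1.52, limma adjusted p = 0.0072) on the log2 scale and was called, just past 2-fold. It fell under 2-fold without FL line 3 (0.88) or without BM line 3 (0.92), and when libraries were scaled by the median of gene ratios (0.97). The YS against FL difference was -0.66 (interval -1.11 to -0.21, limma adjusted p = 0.086), past the p threshold but under 2-fold. The YS against BM difference was 0.41 (interval -0.04 to 0.86, limma adjusted p = 0.16), so these neighbours in the order were not told apart beyond their spread by the model. By exact permutation of the lines (two-sided), each of the 3 comparisons had p = 0.1, the smallest that 3 lines against 3 allow.

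Fcer1g, the γ chain through which the 3 activating receptors signal, was among the most abundant transcripts of these cells, ranked between 16 and 30 of all genes by TPM in every line. It stood at 2559, 2548.5 and 2409 TPM in the YS lines, 2772, 2974 and 3392 TPM in the FL lines, and 2474, 2373 and 2687 TPM in BM lines. FL lines were all above the YS and BM lines, which overlapped. The FL against BM difference was 0.28 (SE 0.12, interval 0.00 to 0.55, limma adjusted p = 0.14) and the YS against FL difference was -0.28 (interval -0.55 to -0.01, limma adjusted p = 0.19), on the log2 scale. For YS against BM the difference was 0 to 2 decimals (interval -0.27 to 0.27, limma adjusted p = 0.99), with a sign that turned under quantile normalization and without YS line 3 or BM line 3. All 3 intervals lay within 2-fold. The intervals of Fcgr1 and Fcgr3 for the comparisons with BM lines lay wholly past 2-fold.

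Fcgrt, the neonatal Fc receptor, had 66.7, 129.7 and 78.3 TPM in the YS lines, 125, 199.7 and 100.4 TPM in the FL lines and 37.6, 43.1 and 28.2 TPM in the BM lines. Every YS and FL line exceeded every BM line, and YS and FL lines overlapped. The difference was 1.27 (SE 0.31, interval 0.56 to 1.98, limma adjusted p = 0.019) for YS against BM and 1.90 (SE 0.31, interval 1.19 to 2.61, limma adjusted p = 0.0044) for FL against BM, on the log2 scale. For YS against FL it was -0.62 (interval -1.33 to 0.09, limma adjusted p = 0.24). The call for YS against BM was lost without YS line 2, where the difference was 0.99 on the log2 scale, just under 2-fold. The call for FL against BM was made in every fit that left out 1 line.

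**Figure D2:**
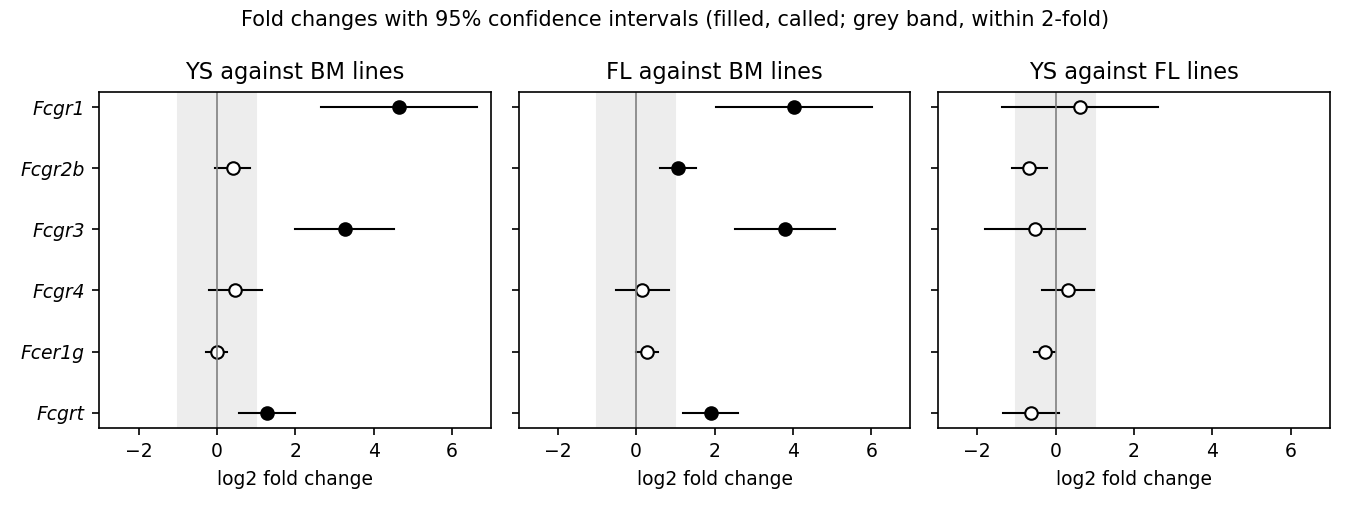
Difference between groups in log2(TPM + 1) for each Fc receptor gene, with 95% confidence intervals from limma; filled points were called, open points were not, and the grey band marks differences within 2-fold. Fcgr1, Fcgr3 and Fcgrt are filled in both comparisons with BM lines, Fcgr2b in FL against BM alone, and the YS against FL panel holds no filled point.

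Taken across the 6 genes, the median difference was 0.87 on the log2 scale for YS against BM, 1.48 for FL against BM and -0.40 for YS against FL. The median over all tested genes was 0.11, 0.09 and 0.02. With quantile normalization the latter became -0.01 for YS against BM, so that scaling alone can move a value by about that much. Groups did not overlap for 4 of the 6 genes in YS against BM, 5 of 6 in FL against BM and 2 of 6 in YS against FL. Over all tested genes this held for 49.0%, 49.5% and 26.1%. In a bulk library, fewer cells with a transcript and less transcript per cell cannot be told apart.

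The balance of activating to inhibitory receptor transcripts differed with origin. In BM lines 1, 2 and 3, Fcgr1, Fcgr3 and Fcgr4 together came to 118, 257 and 85.3 TPM, against 687 to 949.8 TPM in YS lines and 805 to 974 TPM in FL lines. Divided by Fcgr2b in the same line, this gave ratios of TPM of 2.88, 2.78 and 2.42 in YS lines, 2.05, 2.00 and 1.53 in FL lines, and 0.436, 1.05 and 0.454 in BM lines. The group means were 2.69 ± 0.243 (SD, n = 3), 1.86 ± 0.285 (SD, n = 3) and 0.647 ± 0.351 (SD, n = 3). The 3 groups did not overlap, and BM lines 1 and 3 held more of the inhibitory than of the activating transcripts. The ratio follows from the values above and is a description, given without a test. Without Fcgr3, which shares sequence with Fcgr2b, the mean ratio was 1.14 in YS, 0.484 in FL and 0.391 in BM lines. FL lines (0.3798 to 0.585) and BM lines (0.302 to 0.536) then overlapped, and YS lines (0.697 to 1.37) stayed above both.

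The make-up of the activating transcripts differed too. Fcgr4 was 9.93 to 15.1% of their sum in YS lines and 7.09 to 14.1% in FL lines. In BM lines 1, 2 and 3 it was 64.5%, 34.5% and 72.3%, the largest share in lines 1 and 3. Its own level in BM lines, 61.7 to 88.5 TPM, overlapped that of YS and of FL lines, with BM line 3 the lowest of all 9. Fcgr3 was 43.2 to 75.8% of the sum in YS lines, 68.3 to 81.0% in FL lines and 25.7 to 49.1% in BM lines. Fcer1g exceeded the summed activating receptors in every line, by 2.68 to 3.51 times in YS lines, 3.20 to 3.48 times in FL lines and 21.0, 9.25 and 31.5 times in BM lines 1, 2 and 3, as ratios of TPM. For FcRn, the ratio of its partner B2m to Fcgrt ran from 33.1 to 57.9 in YS lines, 14.3 to 39.5 in FL lines and 99.9 to 119 in BM lines.

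**Figure D3:**
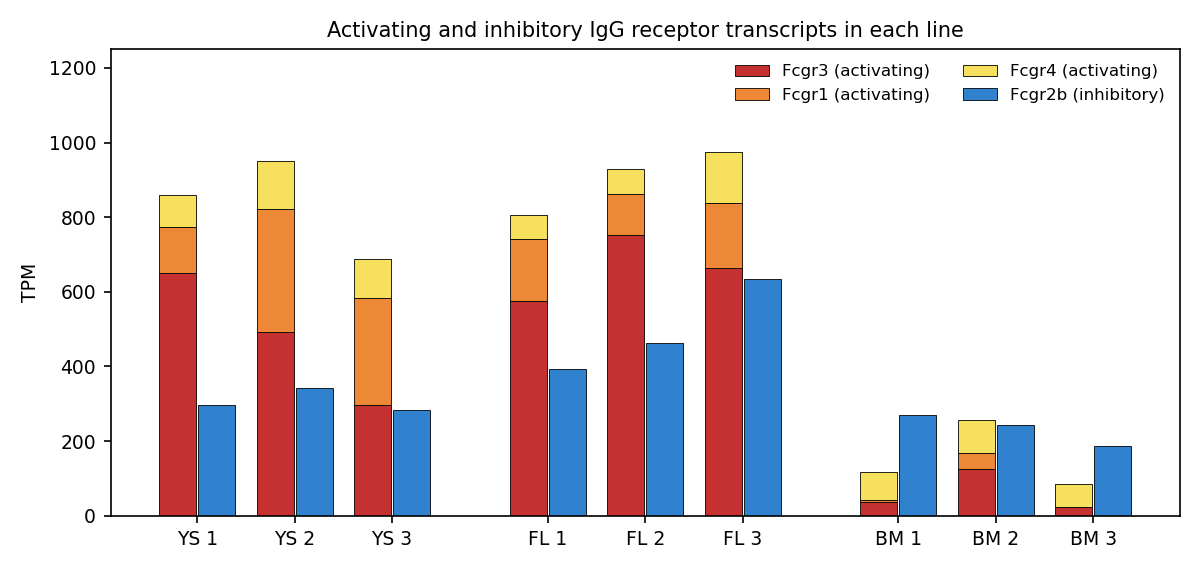
Activating IgG receptor transcripts (Fcgr3, Fcgr1 and Fcgr4, stacked) beside the inhibitory Fcgr2b in each line, in TPM on a linear axis from 0. In all YS and FL lines the stack is taller than the Fcgr2b bar; in BM lines 1 and 3 it is shorter, and in BM line 2 both are about level, with Fcgr4 the largest segment in BM lines 1 and 3.

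A pair of libraries stood apart, and both touch these results. BM line 2 held several transcripts that BM lines 1 and 3 lacked or nearly lacked. Fcrls, an Fc receptor-like gene, was at 45.0 TPM there against 0.00 and 0.08 TPM, and Was, the actin regulator of immune cells, at 11.9 TPM with both other BM lines listed at 0. As a percentage of the level in YS line 2, BM line 2 had 12.2% for Fcrls, 14.1% for Was, 12.8% for Fcgr1 and 25.6% for Fcgr3. For Fcgr4, Fcgr2b and Fcer1g it had 69.4%, 71.3% and 93.1%. No line other than YS line 2 was used as the reference for these percentages. The summed erythroid markers were 229 TPM in BM line 2 against 0.5 to 15.5 TPM in the other 8 libraries. Most of that was Hba-a1, listed at 0 in YS line 2 and at 215 TPM in BM line 2. Whether this library's composition had a part in its Fcgr1 and Fcgr3 levels was not tested, and without it the calls of Fcgr1, Fcgr3 and Fcgrt in both comparisons with BM lines were still made, with Fcgrt differences of 1.40 for YS and 2.03 for FL on the log2 scale. YS line 1 differed from the other YS lines at Fcrls (0.22 against 369 and 288 TPM) and at the summed macrophage markers (3702 against 8552 and 7302 TPM). Of these markers, it held the lowest Lyz2, Csf1r and Cd68 of the YS lines. Its Adgre1 and Itgam lay between those of the other YS lines, and its Mertk was the highest. YS line 1 also held the lowest Fcgr1, Fcgr4 and Fcgrt and the highest Fcgr3 of the YS lines. The part of this in the group differences was not tested. Without this line, the YS against BM differences of the 3 called genes were 5.09 for Fcgr1, 3.01 for Fcgr3 and 1.47 for Fcgrt on the log2 scale, all still called.

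The label macrophage was checked against 6 defining markers, all of which were present in all 9 lines but not at like levels. Their sum was 3702 to 8552 TPM in YS lines, below all FL lines (11176 to 27955 TPM) and all BM lines (11299 to 12876 TPM). Most of the sum in each FL and BM line was Lyz2. For Csf1r, Adgre1, Itgam, Cd68 and Mertk, YS and BM lines overlapped. Lyz2, the macrophage lysozyme, had the highest TPM of the 6 in every line and was called lower in YS than in BM lines (log2 difference -1.60, limma adjusted p = 0.054) and than in FL lines (-2.37, limma adjusted p = 0.048). The first of these calls was lost without YS line 1 or any BM line (-1.71 to -1.10) and the other without FL line 2 or 3 (-2.28 to -1.94). Mertk, a receptor for dying cells, was called higher in FL than in BM lines (1.99, limma adjusted p = 0.0059) and lower in YS than in FL lines (-1.82, limma adjusted p = 0.032), the latter lost without FL line 2 (-1.54). None of the other markers was called, with Csf1r, the M-CSF receptor, between 1086 and 2441 TPM and Adgre1, which encodes F4/80, between 132 and 539 TPM. Other cells that carry Fc receptors were looked for by their own markers. All 5 B cell markers and all 5 NK cell markers were under 1 TPM in every line, with sums of at most 1.61 and 0.41 TPM. Mast cell markers summed to at most 1.33 TPM, with 3 of 5 listed at 0 throughout. The neutrophil markers, of which 5 were in the table, summed to 0.06 to 2.46 TPM in YS, 10.5 to 25.6 TPM in FL and 3.66 to 5.00 TPM in BM lines, nearly all of it S100a8 in FL and BM lines, while S100a9 and Elane were listed at 0. Dendritic cell markers summed to 6.82 to 7.94 TPM in YS, 2.57 to 6.59 TPM in FL and 2.82 to 3.24 TPM in BM lines. Most of this was Zbtb46 in every line. The other 4 were under 1 TPM in every line, with Flt3 listed at 0 throughout. Stromal and endothelial markers reached at most 9.14 TPM. S100a8 was called in all 3 comparisons, in the order FL, BM, YS, with the YS against BM call lost without BM line 1 (-1.42 on the log2 scale, limma adjusted p = 0.12). The dendritic cell factor Zbtb46 was called higher in YS than in BM lines (1.05, limma adjusted p = 0.028). The erythropoietin receptor Epor, at most 6.43 TPM, was called higher in YS (1.54, limma adjusted p = 0.077) and in FL (1.88) than in BM lines. Its calls were lost without YS line 1 or 2 or any BM line (0.98 to 1.77) and without FL line 1 or 2 or BM line 1 or 3 (1.60 to 1.78). The endothelial cadherin Cdh5, at most 1.38 TPM, was called higher in FL than in BM lines (1.10), a call lost without BM line 1 or 3 (1.04). Epor and Cdh5 would not have passed the filter without the FL lines. Their FL against BM calls were thus favoured beforehand, and no p is given for them. The part of these cells in the results was not tested.

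Among 13 other genes whose products bind antibodies or resemble Fc receptors, 4 passed the filter. The IgE receptor chains Fcer1a and Ms4a2, the IgM and IgA receptors Fcamr, Fcmr and Pigr, and Fcrl6 were listed at 0 in all 9 lines. Fcrls had 0.22, 369 and 288 TPM in the YS lines, 595, 768 and 344 TPM in the FL lines and 0.00, 45.0 and 0.08 TPM in BM lines. It was called higher in FL than in BM lines (log2 difference 7.20, SE 2.23, limma adjusted p = 0.053), a call lost without any of FL lines 1, 2 or 3 or BM lines 1 or 3, where the adjusted p ranged from 0.10 to 0.17 and the difference from 6.26 to 7.52. Without BM line 2 the difference was 9.02 (limma adjusted p = 0.035). Fcrl1 had the opposite order, with 35.7, 39.4 and 50.9 TPM in BM lines against 3.97, 5.07 and 12.0 TPM in FL lines and 0.00, 46.4 and 31.4 TPM in YS lines, and was not called. Trim21, the cytosolic antibody receptor, was called higher in YS than in BM lines by 1.03 on the log2 scale (limma adjusted p = 0.055), a call lost without YS line 2 or 3 or BM line 1 or 3 (0.71 to 1.06, adjusted p from 0.11 to 0.18).

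Of 25 genes that carry the ITAM signal onward, 24 were tested. In YS against BM lines 1 was called higher and 1 lower, and in FL against BM lines 3 higher and 2 lower. Of all tested genes, 7.57% were called higher and 5.22% lower in the first comparison, and 6.01% and 4.30% in the second. For YS against FL, limma called 0, and 7 had an unadjusted p under 0.05. Their median difference was 0.27, 0.24 and -0.04 on the log2 scale in the 3 comparisons, beside 0.11, 0.09 and 0.02 for all genes. Was stood furthest apart, at 69.7, 84.0 and 101 TPM in the YS lines and 108, 106 and 104 TPM in the FL lines, against 0.00, 11.9 and 0.00 TPM in BM lines (limma adjusted p = 0.0047 and 0.0034). Since 2 BM lines were listed at 0, no fold is given for it. Src was the reverse, at 7.09, 5.17 and 6.93 TPM in BM lines and under 1 TPM in the other 6 lines. It passed the filter through BM lines alone and so had to differ: it is 1 of the lower calls counted in each comparison with BM lines, and no p is given for it. In FL against BM lines, Lat2, an adaptor of myeloid cells, was lower by 1.57 and the kinase Fyn higher by 1.07 on the log2 scale (limma adjusted p = 0.024 and 0.026).

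Syk, the kinase that docks on the γ chain, had 55.4, 49.7 and 51.3 TPM in the YS lines, 70.2, 72.8 and 86.8 TPM in the FL lines and 86.9, 81.2 and 89.6 TPM in BM lines. Every YS line was below every FL and BM line, but the YS against BM difference of -0.71 (SE 0.11, limma adjusted p = 0.0038) and the YS against FL difference of -0.54 (limma adjusted p = 0.038) were under 2-fold and were not called.

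Among 13 genes that restrain Fc receptor signals, all tested, 4 were called higher in YS than in BM lines, and 2 higher and 1 lower in FL than in BM lines. The shares called higher over all tested genes were 7.57% and 6.01% in these comparisons, and those called lower 5.22% and 4.30%. For YS against FL, limma called 0, and 5 had an unadjusted p under 0.05. The median difference was 0.25, 0.55 and 0.09 on the log2 scale. Csk, the kinase that switches off Src family kinases, had 266, 202 and 284 TPM in the YS lines against 106, 110.1 and 103 TPM in BM lines, a difference of 1.21 (SE 0.17, limma adjusted p = 0.0029), called in every fit that left out 1 line. Cblb, a ubiquitin ligase, was higher in FL than in BM lines by 1.90 (SE 0.48, limma adjusted p = 0.025), also called in every such fit. The other calls of this group, 3 in YS against BM and 2 in FL against BM, were lost in at least 1 of these fits. Inpp5d, the phosphatase recruited by FcγRIIB, was not called, with group means of 179, 211 and 141 TPM in YS, FL and BM lines and log2 differences of 0.34 for YS against BM and 0.55 for FL against BM (limma adjusted p = 0.15 and 0.043). Ptpn6, which encodes SHP-1, was not called either, with means of 480.4, 349 and 522 TPM.

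A list of 14 genes held receptors that use the γ chain, and Tyrobp, the gene of the related adaptor DAP12. Of these, 9 were tested. In YS against BM lines 3 were called lower, in FL against BM lines 1 higher and 2 lower, and in YS against FL lines 2 lower, with medians of -1.18, -0.45 and -0.77 on the log2 scale. The shares called lower over all tested genes were 5.22%, 4.30% and 1.85%, and those called higher 7.57%, 6.01% and 1.95%. Tarm1, an activating receptor of myeloid cells, was at 40.5, 37.2 and 32.9 TPM in BM lines against 0.79, 10.7 and 1.36 TPM in YS lines (log2 difference -3.36, SE 0.79, limma adjusted p = 0.016), and the call was made in every fit that left out 1 line, with a difference of -4.20 without YS line 2. Its call for FL against BM was lost without FL line 1 or without any BM line. Clec4e, the receptor Mincle, was lower in FL than in BM lines by 2.05 on the log2 scale (limma adjusted p = 0.020), called in every such fit. Pira2 and Pira6 were among the called genes, but belong to a family of near-identical copies, so their levels are uncertain. Tyrobp, which encodes DAP12, was at 1852 to 3312 TPM over the 9 lines and was not called (log2 difference -0.47 for YS and -0.46 for FL against BM, limma adjusted p = 0.054 and 0.072).

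For FcRn, a list of 12 genes held its light chain B2m, other heavy chains that share B2m without being partners of FcRn, and genes of endosome recycling, and 11 were tested. In YS against BM lines 1 was called higher and 2 lower, in FL against BM lines 1 lower, and in YS against FL lines 1 higher, with medians of 0.05, -0.01 and 0.01 on the log2 scale. The shares called higher over all tested genes were 7.57%, 6.01% and 1.95%, and those called lower 5.22%, 4.30% and 1.85%. Ehd1, a protein of the recycling endosome, was at 115, 103 and 119 TPM in BM lines and at 35.4 to 52.5 TPM in the other 6 lines, the opposite order to Fcgrt. Its difference was -1.39 (SE 0.15, limma adjusted p = 0.0013) for YS and -1.46 (SE 0.15, limma adjusted p = 0.00075) for FL against BM, called in every fit that left out 1 line. B2m, the light chain that FcRn needs, ranged from 2645 to 4950 TPM with overlapping groups and was not called (log2 difference -0.09 for YS and -0.10 for FL against BM, limma adjusted p = 0.82 and 0.83). The other calls of this list, 2 for YS against BM and 1 for YS against FL, were lost in at least 1 of these fits.

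Among transcription factors known to act on myeloid genes, Irf8 and Spi1 are given. Irf8 was at 112, 61.8 and 53.4 TPM in YS, 58.6, 51.3 and 50.2 TPM in FL and 20.8, 28.5 and 23.7 TPM in BM lines, a log2 difference of 1.54 (SE 0.26, limma adjusted p = 0.0048) for YS and 1.11 (SE 0.26, limma adjusted p = 0.018) for FL against BM. Spi1, which encodes PU.1, was at 364 to 456 TPM in all 9 lines and was not called.

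**Figure D4:**
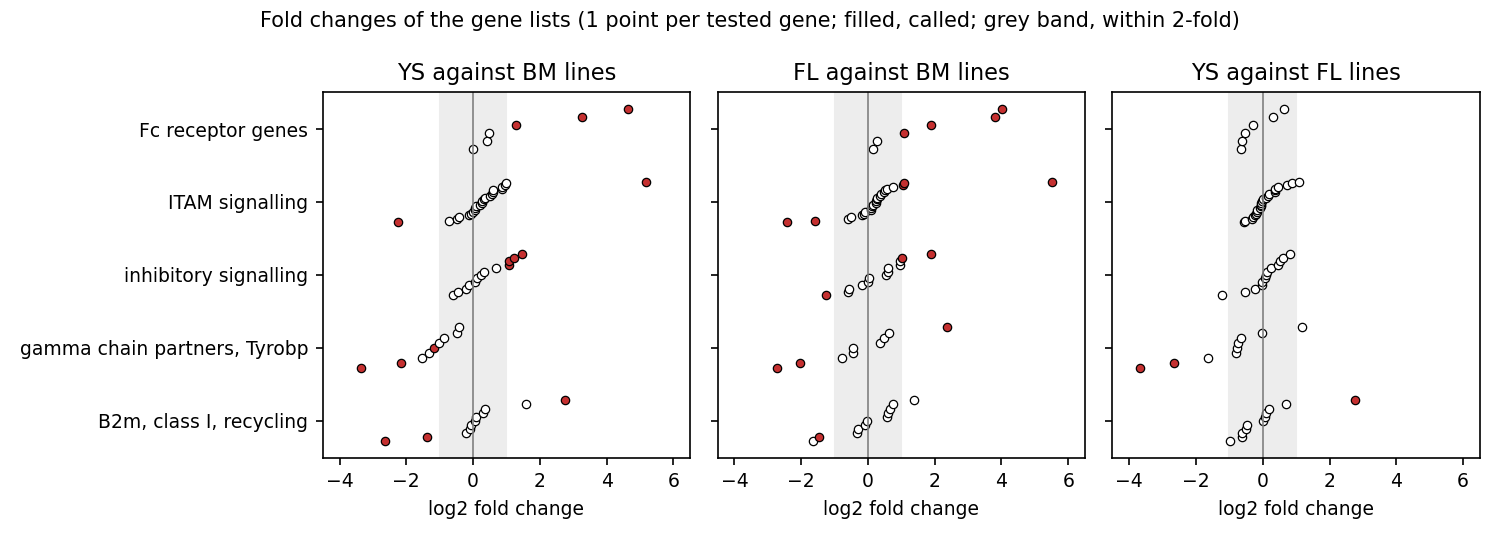
Difference between groups in log2(TPM + 1) for each tested gene of 5 lists (Fc receptor genes, ITAM signalling, inhibitory signalling, partners of the γ chain with Tyrobp, and B2m, class I and recycling genes), 1 point per gene, filled where called. The grey band marks differences within 2-fold. Most genes of the signalling lists lie within the band, with Was far to the right in both comparisons with BM lines.

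The genes whose levels followed each Fc receptor gene most closely over the 9 lines were found by Pearson's r of log2(TPM + 1). The 9 lines fall into 3 groups and are not independent points, so the values are a description. For Fcgr1 they were Tlr7 (r = 0.986), a receptor for single-stranded RNA, Gm5431 (0.985) and Gm4951 (0.983). In BM lines, Tlr7 stood at 0.12, 19.6 and 0.04 TPM, with line 2 the highest as for Fcgr1. For Fcgr3 they were Rcsd1 (0.992), Rftn1 (0.991) and the macrophage transcription factor Maf (0.987). For Fcgr2b they were Scpep1os (0.979), Mgrn1 (0.952) and Rab11fip5 (0.942), and for Fcgr4 Tm4sf5 (0.924), 2510003B16Rik (0.908) and Nox3 (0.870). Of these, Scpep1os, Tm4sf5, 2510003B16Rik and Nox3 were near the floor, at most 1.83, 3.6, 3.69 and 2.59 TPM in any line. For Fcer1g they were Rab7 (0.961), Pdxk (0.959) and Elovl1 (0.939), and for Fcgrt Zfp442 (0.985), Twf1 (0.976) and Zfp90 (0.969). Among the Fc receptor genes themselves, Fcgr1 and Fcgr3 were the closest pair (r = 0.922), and Fcer1g and Fcgr4 the least alike (r = 0.143).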

How the data were processed

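Poly(A)-selected, strand-specific RNA-seq libraries of 3 YS, 3 FL and 3 BM lines were sequenced by the authors as single reads and deposited as 1 table of TPM per gene symbol, given to 2 decimals. The submitters' processing notes name Trim Galore 0.6.6, STAR 2.7.9a and RSEM 1.3.3, whose estimates divide reads between similar genes. The genome build and annotation are not given in the sources used here. Sequencing depth is unknown, since a TPM table does not hold it, and the spread between lines was the measure of error.

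Lines were grouped by the titles in the sample labels. The 11753 genes that reached 1 TPM in 3 or more libraries were tested on the log2(TPM + 1) scale with limma 3.58.1 (R 4.3.3). The 9 libraries shared 1 linear model whose moderated variances followed a trend with level, and p-values were adjusted by Benjamini-Hochberg in each comparison separately. A call needs an adjusted p under 0.1 and over 2-fold. Fold changes are on the log2(TPM + 1) scale, which understates those of low genes. The script was tested on simulated data. Single genes were also compared by exact two-sided permutation tests over lines.

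The genes and lists were chosen with earlier results of these data known. The text names all 6 Fc receptor genes, up to 4 called genes of each list and comparison with the largest difference (of these, mainly those called in every fit that left out 1 line), Syk, Ptpn6, Inpp5d, B2m and Tyrobp, the 3 genes closest to each Fc receptor gene in Pearson's r, and the 3 neighbours on each side. Listed genes with values but no call, and genes of the marker lists, are named outside this rule after their values were seen. Alternatives were other pseudocounts, filters, scalings, thresholds and models, a replicate block, and leaving out each line. Promoter windows and gene neighbours came from RefSeq (GRCm38.p6, all 6 genes matched), shared stretches from GENCODE M21. Chromatin accessibility data were not analysed here. Counts over the list of transcription factors and 1 of the motifs searched are not reported here.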

Additional observations from a re-analysis of the deposited data

How the results depend on the processing

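Each difference of the 6 genes was recomputed under 20 alternatives, 18 differences in all. Of these differences, 13 kept their direction and their side of the threshold in every alternative. Many alternatives cannot alter the size or direction of a difference and act on the call alone. They are the other filters, thresholds and models, the replicate block, and leaving out a line of the group not compared. Fcgr1 and Fcgr3 were called in both comparisons with BM lines under all 20, with log2 differences of 3.77 to 5.77 and 2.73 to 3.97 for YS and 3.14 to 5.15 and 3.26 to 4.50 for FL. Fcgrt was called for FL against BM under all 20 (1.62 to 2.11) and lost its call for YS against BM without YS line 2 (0.99). Fcgr2b lost its FL against BM call with median-of-ratios scaling (0.97) and without FL line 3 (0.88) or BM line 3 (0.92). Differences near 0 changed sign: Fcer1g for YS against BM was 0.024 with quantile normalization, 0.026 without YS line 3 and 0.048 without BM line 3 (leaving out 1 line gave -0.042 to 0.048), and Fcgr4 for FL against BM was -0.20 without FL line 3 (-0.20 to 0.34). The cause of these changes was not tested. The number of genes called ran from 2 to 3 for YS against BM and from 3 to 4 for FL against BM when 1 line was left out, and stayed at 0 for YS against FL. With no fold threshold that last count became 1 (Fcgr2b, -0.66).

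The mean ratio of activating to inhibitory transcripts was 2.60 to 2.83 in YS, 1.77 to 2.03 in FL and 0.445 to 0.753 in BM lines when 1 line was left out, and 1.14 and 0.484 in YS and FL lines without Fcgr3, by construction. Line numbers were shared by the groups, and no source used here says that they pair lines. Over 9 pairs of lines with the same number, deviations from the group means over all tested genes correlated between -0.118 and 0.0878, none above 0.1. Single genes can differ from this: line 2 had the highest Fcgrt in each group. With the replicate block, the counts called were 3, 4 and 0, the same genes as without it. The block lowered the SE of Fcgrt from 0.31 to 0.17, and its YS against FL limma adjusted p from 0.24 to 0.093. It also lowered the SE of Fcgr1 and Fcgr3, and raised that of Fcgr2b, Fcgr4 and Fcer1g. With 3 lines a group, whose depth is unknown, small differences such as those of Fcgr4 and Fcer1g are bounded by the intervals given and are not shown to be absent.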

Other observations

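The genes next to the Fc receptor genes were compared in the same way. Of 24 distinct neighbours, the nearest 3 measured genes on each side of each Fc receptor gene in the RefSeq gene table, 15 were tested. For YS against BM, limma called 0 of them, and 2 had an unadjusted p under 0.05. For FL against BM, 2 were called: Cfap126, beside Fcgr3, was higher by 1.65 on the log2 scale (SE 0.44, limma adjusted p = 0.032) and Apoa2, beside Fcer1g, was lower by 1.21 (SE 0.36, limma adjusted p = 0.048), both at levels under 10 TPM. Apoa2 was also called higher in YS than in FL lines, the 1 call there, by 1.42 (SE 0.36, limma adjusted p = 0.061). Over all tested genes, 7.57% were called higher and 5.22% lower for YS against BM. These shares were 6.01% and 4.30% for FL against BM, and 1.95% and 1.85% for YS against FL.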
